A study of Mus musculus with 6 samples.

Results

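The microarray used in this study carries 16194 probes that are named by a genomic interval and a strand rather than by a gene. Array designs of this kind use such names for probes to long intergenic noncoding RNAs, although the files themselves do not state what each probe detects. Of these, 6909 were chosen by their detection flags: the scanner software called them well above background on no fewer than 2 of the 6 arrays. They lie in 2481 of the 3543 intervals on the design and make up part of 55681 non-control probes in all. The choice used measured values, so the detection counts below describe the selection and carry no test. Intervals are given in mm9, the build named in the file headers, and F and R are the strand letters of the probe names, taken here as forward and reverse strand. The files pair these intervals with no gene, and no mm9 annotation or probe sequence was used here, so exons, introns and untranslated regions are not stated.

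Cells came from the spinal cord of mouse embryos at stage E12.5. All groups carried Hb9::GFP, a reporter in which the promoter of a motor neuron gene drives green fluorescent protein. Embryos were labelled mir-17~92 -/-, a homozygous loss of a microRNA cluster, or wild type, called KO-labelled and WT-labelled below. Sorted GFP-positive cells, taken as motor neurons, gave 2 arrays for each genotype label. GFP-negative cells, called non-motor neurons and holding everything else in the suspension, gave 1 array for each. Cy3-labelled RNA was read in 1 colour, all 6 arrays lay on 1 slide, and the sex of the embryos is not given in the labels. The labels do not say whether replicates were separate embryos or pools, so p-values measure only the spread between these samples, which may be technical.

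Long intergenic noncoding RNAs are transcribed from the sequence between protein-coding genes, are often spliced and polyadenylated like messenger RNAs, and are not known to be translated. Many are expressed at low levels and in few cell types, and some act on chromatin or on the transcription of neighbouring genes. In the developing spinal cord, combinations of transcription factors and noncoding RNAs accompany the assignment of motor neuron identity, and the deleted microRNA cluster is itself processed from a long noncoding host transcript.

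The relative level used throughout is the log2 processed signal minus the 75th percentile of that array. That percentile was 59.9 and 506 intensity units for KO-labelled motor neurons (arrays 1 and 2), 48.5 and 64.5 for WT-labelled motor neurons, and 550 (KO-labelled) and 340 (WT-labelled) for non-motor neurons. The 3 dim arrays are therefore all motor neuron arrays, and the lowest signal called well above background was a relative level between -2.76 and -2.10 on them and between -4.97 and -4.96 on the other 3. Position-named probes were above background on 20.8% to 45.4% of spots per array, against 47.4% to 67.7% of other probes. Of 8 measured motor neuron markers, 4 were higher in motor neurons and none lower, and of 8 red cell markers 5 were lower there. No probe was matched to Mnx1, whose promoter the reporter uses. Both KO-labelled motor neuron arrays sat in slide row 1 and the other 4 arrays in row 2, so the genotype label in motor neurons and the slide row cannot be told apart. Over the members, the WT-labelled motor neuron arrays correlated with each other at r = 0.883 and with the other 4 arrays at r = 0.686 to 0.834, whereas those 4 correlated among themselves at 0.832 to 0.944. These correlations are across 6907 probes that share slide and scan, and describe the arrays only.

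Before any comparison, the targeted locus was read from a probe matched by accession to Mir17hg, the host gene of the microRNA cluster. Its relative level was 4.55 and 4.78 on the KO-labelled motor neuron arrays, -2.38 and 2.73 on those labelled wild type, and 4.62 against -1.23 in non-motor neurons. The KO-labelled arrays were thus higher, by 4.49 ± 1.29 log2 in motor neurons (adjusted p = 0.0361) and by 5.85 in non-motor neurons. If the probe lies inside the deletion this goes against the labels, and whether it does was not established here. Every direction below therefore follows the labels as deposited.

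Of the 6909 members, 2562 (37.1%) were above background on all 6 arrays, and 6228 (90.1%) were above background on both non-motor-neuron arrays. Of the latter, 1117 passed on no other array but the brighter KO-labelled motor neuron array, and 481 on no other array at all. Only 5 passed on all 4 motor neuron arrays and no other. At the edge of the rule, 979 members were above background on exactly 2 arrays, with a median of -2.72 for the brightest array (range -4.41 to 1.76). The 1642 probes left just outside, with 1 array above background, had a median of -3.08 (range -4.44 to 1.23), so the ranges overlap almost entirely. Members took up between 34.2% of position-named probes on chromosome 9 and 52.0% on chromosome 5. Intervals with a member had a median length of 9876 bp and intervals without one 2348 bp. A single passing probe was enough to count an interval, and the number of probes per interval was not taken into account. Both strands were probed in 1067 intervals; 624 of these had members on both strands, 340 on one and 103 on neither. A difference against an array on which a probe was not above background rests on a background reading, so its size is uncertain and the number of arrays that measured the probe is given with it. The 2 members flagged as irregular on an array were left out of the tests, which leaves 6907.

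Motor neurons were first compared with non-motor neurons, which asks which noncoding intervals mark the sorted cells. Few members differed: 34 were higher and 5 lower in motor neurons (0.492% and 0.0724% of 6907 members), against a background of 0.649% higher and 0.204% lower over all 33265 probes tested (limma, additive model with genotype label, adjusted p under 0.05). The median difference was 0.18 log2 over the members and -0.09 over all probes tested. A group of them lay together on chromosome 16: 8 of the 34 members higher in motor neurons were F-strand probes between chr16:40096026-40472481, a stretch of 376456 bp. This group was chosen after its values were seen, by linking called members of 1 strand that lay within 500000 bp.

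That stretch holds 29 F-strand probes in 10 named intervals, some of which overlap, and 21 of the probes are members. All 21 had a positive motor neuron minus non-motor neuron difference, from 1.31 to 3.97 log2 with a median of 2.67, and 8 passed the test. In 18 of the 21, all 4 motor neuron arrays lay above both non-motor-neuron arrays. The stretch was chosen by its called probes, so these counts describe it and carry no test. The share of all probes with this order of arrays was not counted. Background readings leaned the same way on the dim arrays. A_30_P01022118, an F-strand probe of the stretch above background on no array, read -4.91, -7.18, -4.25 and -4.40 in motor neurons and -7.19 and -6.54 outside them. The sign of members not above background on every array may therefore rest on background readings. The 9 members above background on all 6 arrays were all positive, with a median of 2.67. On the R strand of the same stretch, 9 probes in 3 intervals were measured and none was a member.

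In the interval chr16:40283097-40284822 (1726 bp, F strand) all 3 probes were members and all 3 were called. A_30_P01033303 had relative levels of 0.24 and -1.49 on the KO-labelled motor neuron arrays, 1.28 and 1.97 on the WT-labelled ones, and -3.39 and -2.29 on the non-motor-neuron arrays. It was 3.34 ± 0.60 log2 (SE) higher in motor neurons (adjusted p = 0.0404). A_30_P01030272 gave a difference of 3.20 ± 0.57 (adjusted p = 0.0401), with levels of -0.52, -2.24, 0.07 and 0.54 in motor neurons and -4.24 and -3.23 outside them. Every motor neuron array exceeded both non-motor-neuron arrays for these probes, and the WT-labelled pair was the brighter of the motor neuron pairs. The remaining probe, A_30_P01031305, was not above background on either non-motor-neuron array and was at least 7.02-fold higher in motor neurons. Here and below, "at least" sets the brighter group's mean against the lowest signal called above background on each array of the dim group, or the probe's own signal where that is higher. Where an array of the brighter group was itself not above background, its reading still enters the mean, so the bound is approximate. Members above background in 1 cell type alone entered through the group where they are high, so they had to differ and their bounds are a description. Of the 8 called probes of the stretch these were A_30_P01031305, A_30_P01022006, A_30_P01025151 and A_30_P01021021. Uncalled members of this kind included A_30_P01020376 and A_30_P01021436.

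A further 184755 bp along the F strand, the 182 bp interval chr16:40469578-40469759 had 2 members, both called. A_30_P01022006 read -2.81 and -5.00 on the KO-labelled motor neuron arrays, -1.59 and -0.69 on the WT-labelled ones, and -6.84 and -6.14 on the non-motor-neuron arrays. It was above background on the WT-labelled motor neuron arrays alone, so its value of at least 5.42-fold higher in motor neurons is approximate. A_30_P01025151, above background on 3 of the 4 motor neuron arrays, was at least 6.72-fold higher. A nearby interval, chr16:40471828-40472481, held 3 members above background on all 6 arrays, of which 1 was called, A_30_P01032069 (3.15 ± 0.60, adjusted p = 0.0492). The other two, A_30_P01024653 and A_30_P01025027, had differences of 2.86 and 2.67 that did not pass the test (adjusted p = 0.0566 and 0.0660). The remaining called probes were A_30_P01021021 in chr16:40096026-40097242 (at least 5.25-fold) and A_30_P01033520 in chr16:40307070-40308718 (2.93, above background on 3 of 4 motor neuron arrays and 1 of 2 others).

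A smaller group lay on the R strand of chrX:102567595-102589870, again chosen after its values were seen. All 8 R-strand probes, from 2 overlapping intervals, were members, and for all 8 the 4 motor neuron arrays lay above both non-motor-neuron arrays. This count carries no test either, and A_30_P01017849, above background on neither non-motor-neuron array, had to differ. Differences ran from 1.48 to 2.89 log2 (median 2.39), and 3 passed the test. A_30_P01018495 stood at 0.52, -0.41, 1.03 and 0.75 on the motor neuron arrays and at -2.50 and -2.27 on the non-motor-neuron arrays (difference 2.86 ± 0.49, adjusted p = 0.0378). Its genotype-label difference in motor neurons was -0.83 (adjusted p = 0.281). The 2 F-strand members of this interval had differences of 1.34 and 1.33 that did not pass.

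**Figure D1:**
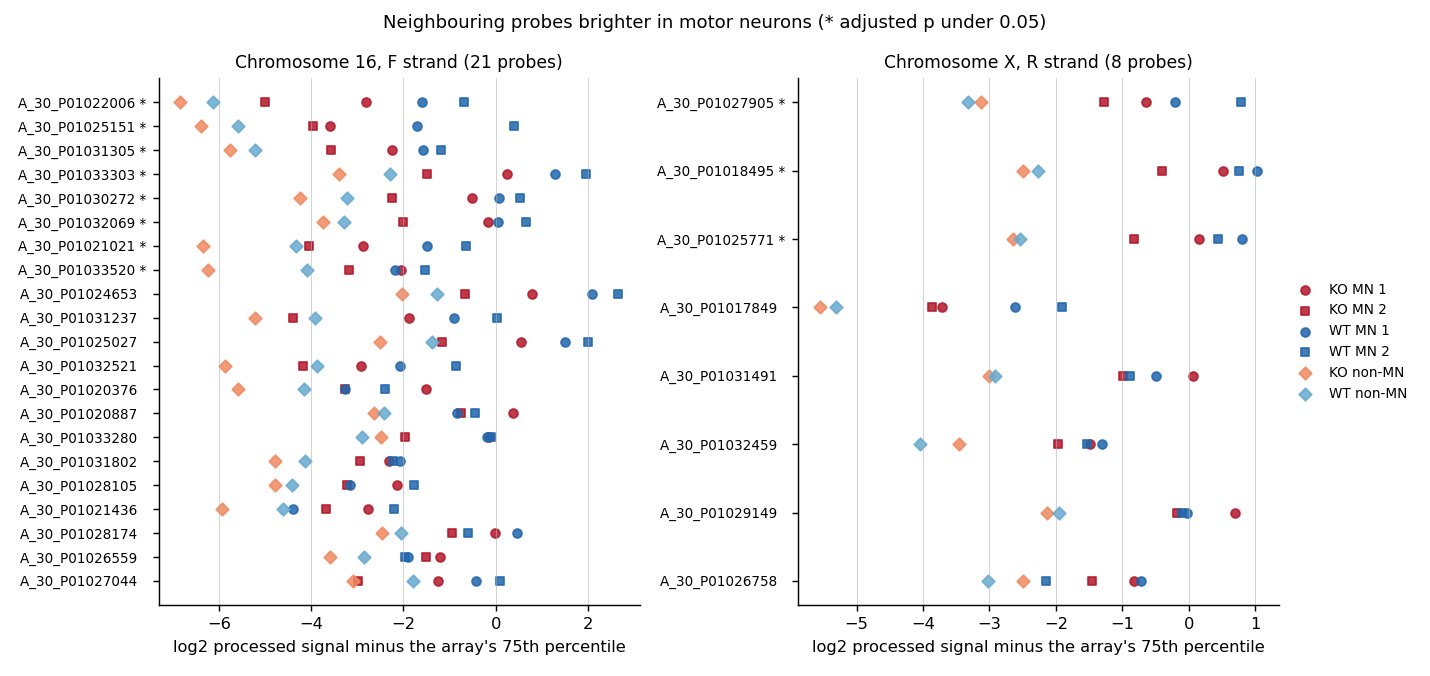
Relative log2 level of each member probe of the chromosome 16 group (left, 21 F-strand probes) and the chromosome X group (right, 8 R-strand probes) on the 6 arrays, 1 point per array, ordered by the motor neuron minus non-motor neuron difference; asterisks mark the 8 and 3 probes with adjusted p under 0.05. In 18 of 21 probes on the left and 8 of 8 on the right, every motor neuron array (red and blue circles and squares) lies to the right of both non-motor-neuron arrays (diamonds). Both groups were chosen by their called probes, and the share of all probes with this order was not counted, so these counts carry no test.

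The largest single difference between cell types belonged to A_30_P01027466 in chr4:35106125-35127700, R strand. It read -0.98 and 1.80 on the KO-labelled motor neuron arrays, 4.45 and 5.15 on the WT-labelled ones, and -3.85 and -5.65 outside motor neurons. The difference was 7.35 ± 1.21 log2 (adjusted p = 0.0368), and all motor neuron arrays exceeded both others. Of the non-motor-neuron arrays, only the KO-labelled one was above background. It was the only member among the 4 R-strand probes of that interval. A further 6 members were above background on neither non-motor-neuron array. They were A_30_P01030594 (chr7:113768215-113783490, R, at least 6.49-fold), A_30_P01023535 (chr7:67111261-67120645, R, at least 5.10-fold), A_30_P01021955 (chr4:115639749-115641787, R, at least 4.86-fold), A_30_P01020668 (chr15:51829797-51844247, R, at least 10.6-fold), A_30_P01029045 (chr17:9943615-9967953, R, at least 7.19-fold) and A_30_P01027347 (chr5:144517700-144526071, R, at least 5.06-fold). The other R-strand members of these intervals were not called. Their differences were 0.30 (A_30_P01027518), -0.08 (A_30_P01029835), -0.33 (A_30_P01029220), 0.44 (A_30_P01019011) and 1.67 (A_30_P01019769). The interval on chromosome 17 had no other member. Single probes therefore do not show that the interval as a whole was higher in motor neurons. The dim side was not measured, so bounds are given in place of differences. They are approximate where motor neuron arrays were not above background either. A_30_P01021955 and A_30_P01027347 were above background on array 2 of each label alone. Of the 6, A_30_P01020668 alone was above background on all 4 motor neuron arrays.

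The 5 members lower in motor neurons were above background on both non-motor-neuron arrays. A_30_P01029926 (chr6:83841733-83842297, F) read 0.16 and -0.64 there and between -6.82 and -3.96 on the motor neuron arrays, none of which was above background, so it was at least 6.94-fold lower in motor neurons. A_30_P01021981 (chr19:60220577-60238494, F) stood at -0.74 and -1.52 outside motor neurons and at -4.81, -3.83, -4.16 and -4.31 in them. It was above background on 1 of the 4 motor neuron arrays, so the difference of -3.14 ± 0.50 (adjusted p = 0.0345) is set mostly against background readings. Both other F-strand members of that interval, A_30_P01025861 and A_30_P01023295, had differences of -2.06 and -2.01 that did not pass (adjusted p = 0.0732 and 0.121). A_30_P01027746 (chr13:104591573-104599048, R) was at least 3.87-fold lower. Like A_30_P01029926, it passed the detection rule through the non-motor-neuron arrays alone, so both had to differ and their bounds are a description. A_30_P01019929 (chr14:62263564-62308286, R) and A_30_P01027015 (chr14:55433382-55452757, F) had differences of -2.83 and -2.39 log2 (adjusted p = 0.0376 and 0.0495), each above background on 1 of the 4 motor neuron arrays.

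**Figure D2:**
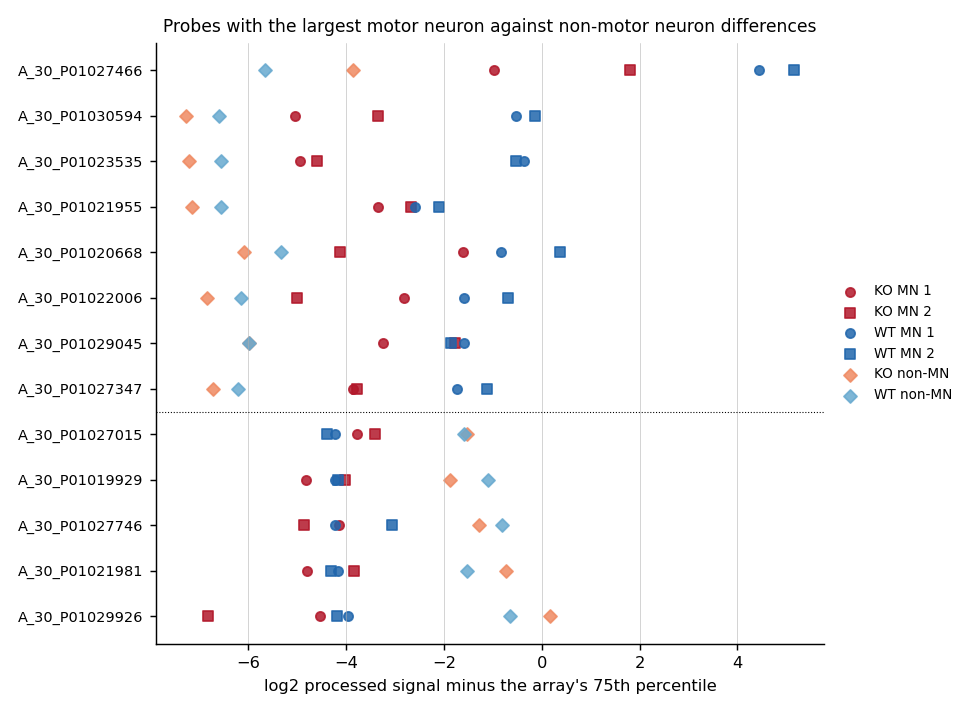
Relative log2 level on the 6 arrays of the 8 members with the largest positive and the 5 with negative differences between motor neurons and non-motor neurons that passed the test, 1 point per array, with positive differences above the dotted line. Diamonds (non-motor neurons) lie left of every circle and square in the upper block and right of them in the lower block, a condition for being drawn.

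These calls rest on few arrays, and the part of the red cell marker difference in them was not tested. The calls did not hold without WT-labelled motor neuron array 1 or without array 2. More members were called without KO-labelled array 2 and fewer without KO-labelled array 1. Each of these fits leaves 1 array in a group, so their counts are not read. In the chromosome 16 group all 21 differences stayed positive. Their median was 2.71 and 2.49 without WT-labelled array 1 and 2, and 2.35 and 3.08 without KO-labelled array 1 and 2. Within the labels, the median member was 0.63 log2 higher in motor neurons among WT-labelled arrays and 0.23 lower (-0.23) among KO-labelled arrays, beside -0.15 and -0.12 for the other probes tested.

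Next, the knockout and wild-type labels were compared within motor neurons, which asks how the arrays under these labels differ. The label and the slide row cannot be told apart here, so no difference is read as an effect of losing the cluster. Members were mostly lower under the knockout label: 1936 were lower and 227 higher (28.0% and 3.29% of 6907). Over all 33265 probes tested the background was 14.2% lower and 10.6% higher (limma, 4 group means, adjusted p under 0.05). The median difference was -1.26 log2 over the members and -0.20 over all probes, so the members' median lay 1.06 below that of the whole array (-1.06). Both WT-labelled motor neuron arrays were dim, and background readings came out lower under the knockout label too. A_30_P01029926, above background on no motor neuron array, had a difference of -1.61, and 104 of the 1936 were likewise above background on none. Over 55669 probes with no filter on dim probes the median was -1.12. The part of background readings in the members' median was not tested. Since the rule used these arrays for detection, members were also described by the number of arrays on which they were above background. Among the 2561 tested members above background on all 6 arrays, 721 were lower and 55 higher, with a median of -1.33. The 16514 other probes above background on all 6 arrays had 1488 lower, 1544 higher and a median of 0.09.

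The members' median was below 0 at every brightness. In bins of mean relative level, the members' median difference was -0.85 below -4, -1.32 from -4 to -3, -1.43 from -3 to -2, -1.35 from -2 to -1, -1.18 from -1 to 0 and -1.14 above 0. Other probes of the same bins had medians of -0.48, -0.52, -0.44, -0.07, 0.15 and 0.33. Called-lower members made up 24.8% of those with a mean level above 0, where the other probes had 6.20%. Chromosomes differed little, from 23.5% of members called lower on chromosome 14 to 33.6% on chromosome 5. So did the strands, with 28.6% of F-strand and 27.6% of R-strand members lower.

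**Figure D3:**
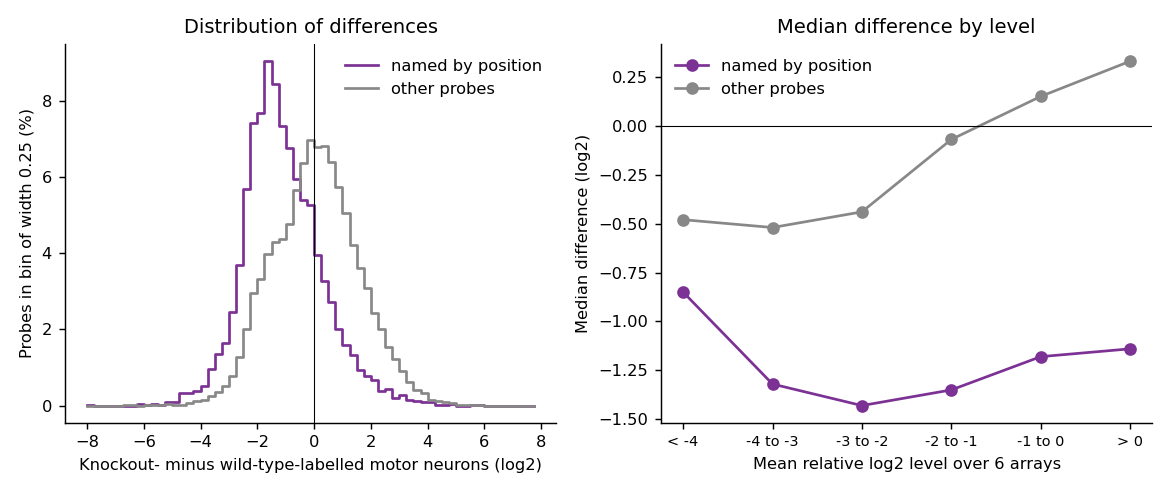
Left, distribution of the KO- minus WT-labelled difference in motor neurons (log2, bins of 0.25, percent of probes) for the 6907 position-named members and the 26358 other probes tested; right, the median difference in bins of mean relative level. The members' curve is shifted to the left of 0, and their median is below that of the other probes in each of the 6 bins.

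Markers of other cells moved between the same arrays. In motor neurons under the knockout label 6 of 10 microglia and macrophage markers were higher and none lower, with mean relative levels of 0.46 and 0.68 against -1.45 and -1.22; 9 and 10 of them were above background on the KO-labelled arrays and 6 on each WT-labelled array. Of the motor neuron markers 4 of 8 were higher (means 1.20 and 1.43 against 0.08 and -0.33), and of the progenitor markers 3 of 8. The red cell list had 2 of 8 higher with a median of 0.57. The endothelial list had 2 of 6 higher, Cdh5 (3.78) and Cldn5 (2.45), but a median of -0.44, with Pecam1, Kdr and Tek at -1.50, -2.54 and -1.28 short of the threshold. None of 7 mesenchymal markers was called, and over all probes 10.6% were called higher. The part of these shifts in the members' differences was not tested, and in sorted bulk samples fewer cells of a type and less RNA per cell cannot be told apart.

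Leaving out 1 array moved the size of the difference. The members' median difference was -1.39 and -1.05 without WT-labelled array 1 and 2, and -1.45 and -0.98 without KO-labelled array 1 and 2. Over all probes it was -0.13, -0.27, -0.13 and -0.24 in the same order. With all probes limited to those above background on all 6 arrays, 1191 members were lower and 90 higher. Of the members called in that fit 7.03% were higher, against 40.8% of all probes called. The share of called members that were higher was 10.5% in the main fit, but 29.6% with median scaling and 41.8% with quantile normalization. Over all probes called, the same share was 42.7%, 73.9% and 80.1% in that order. The additive model over all 6 arrays called no member in either direction.

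The largest rise under the knockout label was in the interval chr14:115443612-115445950 (2339 bp, F strand), where all 3 probes were members and all 3 were called. A_30_P01031307 read 3.19 and 3.74 on the KO-labelled and -4.09 and -0.68 on the WT-labelled motor neuron arrays, a difference of 5.85 ± 0.95 log2 (adjusted p = 0.0094). A_30_P01033133 read 3.16 and 3.64 against -4.12 and -0.22 (5.57 ± 1.05, adjusted p = 0.0123). A_30_P01029746 read 4.43 and 4.67 against -1.91 and 2.72 (4.15 ± 1.19, adjusted p = 0.0357). All 3 were below background on WT-labelled array 1 and above it on array 2, so the WT-labelled pair was far apart. The probe matched to Mir17hg had a like order of arrays, and whether the interval lies in that gene was not established. In non-motor neurons the 3 probes read 3.55 against -2.26, 3.35 against -2.74 and 4.57 against -1.28, that is 5.81, 6.08 and 5.85 log2 higher under the knockout label.

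Other members were also higher under the knockout label, several of them above background on neither WT-labelled motor neuron array. The R strand of chr3:100363012-100369971 had 3 probes, all members and all called. A_30_P01032063 was at 0.48 and 1.21 on the KO-labelled motor neuron arrays and at -4.37 and -3.72 on the WT-labelled ones, at least 8.27-fold higher (adjusted p = 0.00678), while the non-motor-neuron arrays read 1.11 and 0.28. A_30_P01023116 and A_30_P01030483 were at least 5.30-fold and 3.75-fold higher. In chr3:146629425-146649125 all 4 F-strand probes were called higher. A_30_P01031208, above background on all 6 arrays, was higher by 2.19 log2, and A_30_P01033124, above background on 1 of the 2 WT-labelled motor neuron arrays, by 3.11. A_30_P01028040 and A_30_P01018666 were above background on neither of these, and A_30_P01018666 was at least 6.31-fold higher. It read 0.12 and 0.79 against -3.50 and -4.35, with -1.89 and -2.08 in non-motor neurons, which places the non-motor-neuron arrays between the labels. A_30_P01025896 (chr6:54591416-54597566, F) was at least 6.40-fold higher (0.21 and 0.74 against -2.85 and -4.50). A_30_P01032364 (chr4:136856064-136877219, R) was above background on all 6 arrays and read 3.62 and 4.25 against -0.53 and -1.14, a difference of 4.77 ± 0.54 (adjusted p = 0.00678). Its levels of 4.49 and 3.82 in non-motor neurons were close to those under the knockout label. The other 4 R-strand probes of that interval were members too, with differences of 3.34 (A_30_P01021851), 2.37 (A_30_P01029358), 1.66 (A_30_P01025114) and 1.20 (A_30_P01024041), of which the first 2 passed.

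The largest fall was that of A_30_P01022993, the only probe of chr17:71202950-71229883 (F). It read 4.45 and 5.46 on the WT-labelled motor neuron arrays, -4.01 and -1.63 on the KO-labelled ones and -2.53 and -2.80 in non-motor neurons, a difference of -7.77 ± 0.79 (adjusted p = 0.00678), with 1 of the 2 KO-labelled motor neuron arrays above background. The WT-labelled motor neuron arrays thus stood apart from the other 4. A_30_P01027250 (chr2:176598132-176602354, R) read 0.99 and 0.40 against -4.55 and -6.07 and was at least 23.6-fold lower under the knockout label. Of the other probes of that interval, A_30_P01029506 was called lower as well (-2.43, above background on 1 of the 2 KO-labelled arrays), while A_30_P01028261 was above background on no motor neuron array and has no fold. A_30_P01019175 (chr3:86827945-86886695, R) was at least 21.1-fold lower, reading 0.24 and 0.82 against -4.56 and -6.83. Another R-strand member of that interval, A_30_P01022760, had a difference of -0.03 (adjusted p = 0.971).

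Falls of A_30_P01028727 (chr13:28490070-28492645, R, at least 14.6-fold), A_30_P01017726 (chr8:122807653-122823000, F, at least 13.1-fold), A_30_P01022616 (chr17:27445260-27455641, R, at least 12.9-fold) and A_30_P01030043 (chr9:65647428-65677009, F, at least 8.74-fold) had the same form, with the probe above background on both WT-labelled motor neuron arrays and on neither KO-labelled one. A_30_P01029643 (chr17:84359207-84360270, R) read 0.49 and 1.79 against -4.68 and -4.21, a difference of -5.59 ± 0.60 (adjusted p = 0.00678), with 1 of the 2 KO-labelled motor neuron arrays above background. It read -4.36 and -4.32 in non-motor neurons, again with the WT-labelled motor neuron pair alone at a high level.

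**Figure D4:**
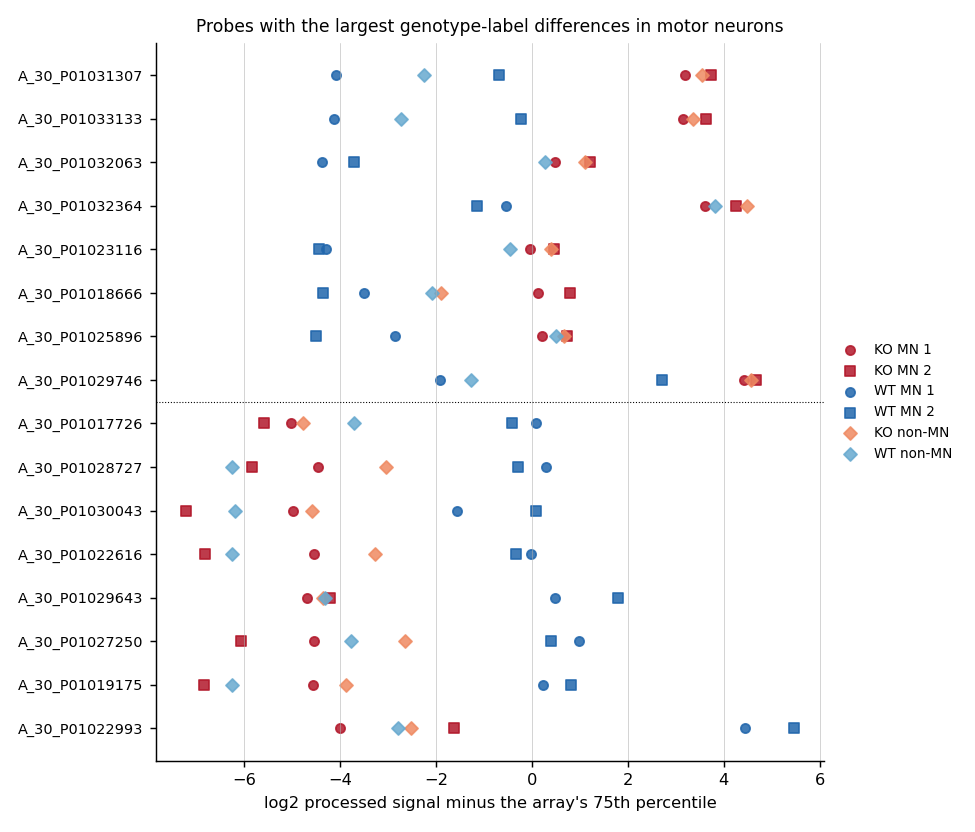
Relative log2 level on the 6 arrays of the 8 members with the largest positive and the 8 with the largest negative (chromosome 18 left out) KO- minus WT-labelled differences in motor neurons, 1 point per array, with positive differences above the dotted line. Red (knockout label) and blue (wild-type label) motor neuron points do not overlap in any of the 16 probes, a condition for being drawn.

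Among all called members, the 1936 lower ones had a median difference of -2.36 and 740 of them were above background on all 4 motor neuron arrays. A further 335 were above background on no KO-labelled motor neuron array, and 104 on no motor neuron array at all, for which no fold can be given. The 227 higher ones had a median of 2.33; 55 were above background on all 4 arrays and 131 on no WT-labelled one. In non-motor neurons, where the arrays are separate ones, 85.1% of the called-lower members were lower under the knockout label (1647 of 1936, median -0.46) and 80.6% of the called-higher members were higher (183 of 227, median 0.27). Over all 6907 members 68.8% were lower and 31.2% higher there (median -0.25), and of the 4744 members not called 64.5% were lower. Of the 26358 other probes tested, 48.4% were lower and 51.6% higher. Within each label, motor neuron array 1 and the GFP-negative array share a tag in their descriptions whose meaning is unstated.

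Probes of 1 interval and strand mostly had the same sign. Of 1769 interval strands with at least 2 tested members, 1160 had all members below 0 and 133 all above 0 in the genotype comparison, and in 152 and 13 of them all members were called lower or higher. With at least 3 members (1081 interval strands) 48 were called lower and 10 higher throughout. The brightest members of an interval strand, taken in pairs, had genotype differences that correlated at r = 0.559 over 1769 pairs, against 0.0406 for 3885 pairs of probes of the same named gene. For the cell type difference the same values were 0.416 and 0.497. Paired probes share arrays and can share a transcript and base composition, so these are descriptions. Among probes above background on all 6 arrays the genotype values were 0.633 (567 pairs) and 0.0977 (2025 pairs).

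Over 624 intervals with members on both strands the genotype differences of the brightest F and R members correlated at r = -0.0927, and the cell type differences at 0.108. Both had the same sign in 76.3% of intervals for the genotype label, where most members are below 0. The brightest members of consecutive intervals less than 10000 bp apart correlated at 0.0931 for the genotype label and 0.0109 for the cell type (241 pairs).

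**Figure D5:**
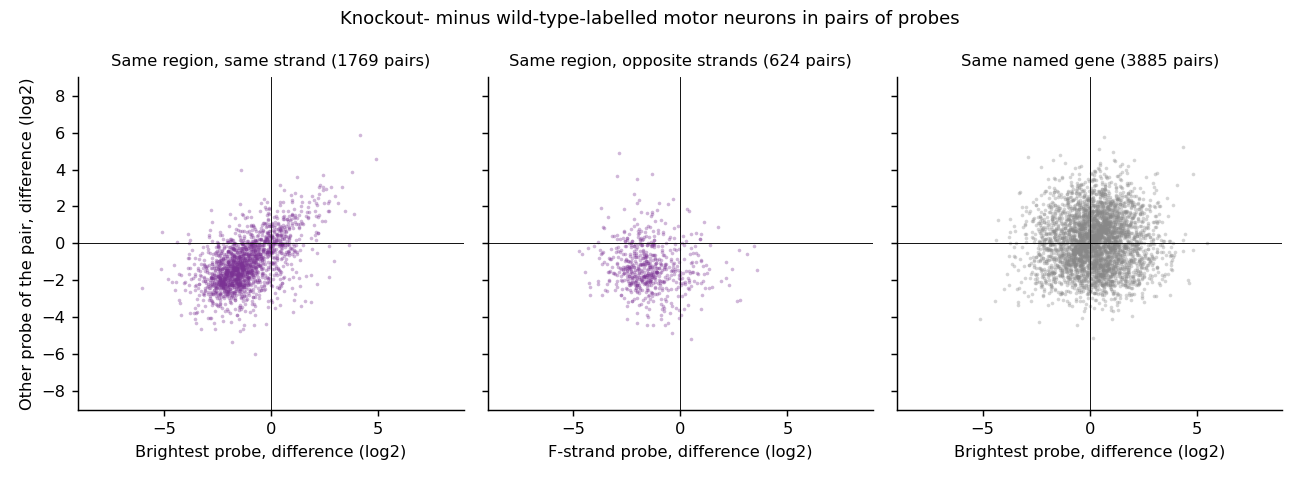
Knockout- minus WT-labelled difference in motor neurons (log2) for pairs of probes: the 2 brightest members of an interval and strand (left), the brightest members of the F and R strands of an interval (middle) and the 2 brightest probes of a named gene (right). Points lie along the diagonal on the left (r = 0.559) and form round clouds in the middle and on the right (r = -0.0927 and 0.0406).

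In 47 intervals members were called in opposite directions, and in 14 interval strands members of the same strand were, counting members above background on no motor neuron array. In chr3:100363012-100369971 the 3 R-strand probes were higher and A_30_P01026583 on the F strand was called lower, but it was above background on no motor neuron array, so no direction is read from it. In chr4:136856064-136877219, 3 R-strand members were called higher and all 3 F-strand members lower, with differences of -2.57 for A_30_P01021338 and -1.91 for A_30_P01023127, both above background on all 6 arrays, and -3.63 for A_30_P01032409, above background on 1 of the 2 KO-labelled motor neuron arrays. In chr1:193815525-193825775 the F-strand probe A_30_P01028956 read 2.64 and 3.20 against 0.33 and -1.62 (3.57 ± 0.69, adjusted p = 0.0133), and A_30_P01022104 on the R strand read -4.61 and -4.28 against -2.74 and 0.73 (-3.43 ± 0.96, adjusted p = 0.0326), above background on 1 of 2 arrays under each label. In chr11:5387350-5403150, A_30_P01021274 (R) was at least 5.11-fold higher and A_30_P01023725 (F) at least 4.20-fold lower, the latter above background on 1 of the 2 WT-labelled arrays.

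On chromosome 7 the discordance was within a strand. In chr7:67111261-67120645, A_30_P01029835 on the R strand read 1.94 and 2.06 against -0.45 and -2.83 (3.64 ± 0.75, adjusted p = 0.0153), above background on 1 of the 2 WT-labelled arrays. A_30_P01023535, also on the R strand, read -4.95 and -4.60 against -0.36 and -0.53 (-4.33 ± 0.51, adjusted p = 0.00678), above background on 1 of the 2 KO-labelled arrays. The overlapping interval chr7:67111261-67120697, which shares 9385 bp, had 2 R-strand members that were both higher, A_30_P01017750 (at least 12.4-fold) and A_30_P01019990 (at least 11.9-fold). The files do not tell whether these probes read the same transcript.

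Intervals whose members were all called lower, beside those above, included chrX:34360500-34388500 (F), with A_30_P01024823 at -1.36 and -2.95 against 2.45 and 1.67 (-4.21 ± 0.65, adjusted p = 0.0092) and A_30_P01022057 at least 6.04-fold lower. In chr4:88582120-88582754 (F) A_30_P01020782 and A_30_P01026364 were at least 6.28-fold and 4.24-fold lower, the second above background on 1 of the 2 WT-labelled motor neuron arrays. In chr12:72103832-72116875 (F) A_30_P01027897 and A_30_P01028180 were at least 10.3-fold and 4.77-fold lower, and on its R strand 2 of 9 members were called lower and none higher. The F strands of these intervals on chromosomes X, 4 and 12 had 6, 3 and 10 probes, of which 2 each were members. The rest were not measured well enough to be tested.

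In non-motor neurons, with 1 array per label and no replicate check, 6226 members were above background on both arrays. Of these, 10 were at least 4-fold higher and 49 at least 4-fold lower under the knockout label (0.161% and 0.787%), against 0.131% and 0.499% of 31291 probes of all kinds. The members' median was -0.27 log2 and that of all probes -0.04. The 3 probes of the chromosome 14 interval were the highest of these. A_30_P01026866 (chr8:119732348-119749198, F) followed, at -1.04 against -4.03, with motor neuron levels of -2.15, -2.96, -3.56 and -1.24 that overlapped between labels. At the other end were A_30_P01022062 (chr19:32911584-32911747, F; -4.60 against 0.01), A_30_P01033263 (chr3:48896525-48994125, R; -4.39 against -0.37) and A_30_P01032607 (chr9:75316023-75344401, F; -4.71 against -1.29). These 3 were above background on the non-motor-neuron arrays alone. A_30_P01028978 (chr1:45800000-45834825, R) was low under the knockout label in both cell types, at -4.82 against -1.51 in non-motor neurons and at least 3.83-fold lower in motor neurons (adjusted p = 0.0109), where all 3 members of the interval strand were called lower.

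No member passed the test of whether the label difference differed between cell types (0 of 6907 members and 0.0% of all 33265 probes by limma), while 738 members had an unadjusted p under 0.05. The smallest adjusted p among members was 0.198. The members with the largest interactions or smallest p named here did not pass. A_30_P01019417 (chr3:145390505-145398253, F) was lower under the knockout label in motor neurons (-4.70 and -5.69 against -2.18 and -1.74) and higher in non-motor neurons (0.09 against -4.96), but only WT-labelled motor neuron array 2 and the KO-labelled non-motor-neuron array were above background. A_30_P01029296 (chr5:122047900-122065325, F), A_30_P01019175 and A_30_P01028727 had fitted interactions of -9.08, -8.60 and -8.38, and were below background on both KO-labelled motor neuron arrays and the WT-labelled non-motor-neuron array. Of the positive candidates, A_30_P01029305 and A_30_P01021129 lie on the R strand of the overlapping intervals chr5:22887983-22939658 and chr5:22890322-22939119. They were above background on neither WT-labelled motor neuron array and at least 3.32-fold and 2.97-fold higher under the knockout label in motor neurons, beside differences of -0.86 and -0.87 in non-motor neurons (interaction adjusted p = 0.517 for both). A_30_P01022420 (chr2:35828611-35838083, R) and A_30_P01019521 (chr12:110003268-110030953, F) had fitted interactions of 3.85 and 5.84. The former was above background on neither WT-labelled motor neuron array, and the latter on KO-labelled motor neuron array 2 and the WT-labelled non-motor-neuron array alone. Members were called when KO-labelled motor neuron array 1 or array 2 was left out, as were other probes. Those fits leave 1 array in the group, so their counts are not read.

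The members with the brightest probes were spread over several chromosomes. A probe's brightness depends on its sequence, so their order is not an order of abundance. A_30_P01020015 in chr17:39982023-39983277 (F) read 8.09 and 7.23 on the KO-labelled and 9.07 and 10.38 on the WT-labelled motor neuron arrays, and 7.86 and 8.60 in non-motor neurons. It was called lower under the knockout label (-2.06 ± 0.62, adjusted p = 0.0411), as were both other probes of the interval, A_30_P01030943 and A_30_P01027833 (-2.30 and -2.05). A_30_P01020570 (chr12:73838608-73862621, F) was called lower too (-2.58, adjusted p = 0.0403), with 10.56 on WT-labelled array 2 and 6.54 to 8.09 on the other 5 arrays. Its R-strand counterpart A_30_P01031264 read 6.90 to 8.13 (difference -0.56, adjusted p = 0.47).

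The rest of the brightest did not pass. A_30_P01031448 (chr14:78924115-78938125, F) read 7.59 to 10.22 over the 6 arrays, A_30_P01026458 (chr11:22681800-22707775, R) 7.90 to 8.90, A_30_P01031754 (chr19:5801802-5802597, R) 7.36 to 9.42 and A_30_P01032016 (chr6:83368261-83407280, F) 7.02 to 9.24. The genotype-label differences were -1.68, -0.61, -1.09 and -1.40. A_30_P01023523 (chr6:116092274-116144199, F) and A_30_P01032942 (chr4:94742359-94822969, F) had differences of -1.28 and -2.56. A_30_P01030669 (chr7:108209996-108216032, R) was the steadiest, reading 7.43 to 7.98 with a difference of 0.15, while both F-strand probes of that interval, A_30_P01019201 and A_30_P01031375, were called lower (-3.90 and -2.27).

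For comparison, a list of 59 named long noncoding RNA genes had 14 genes measured through accession-matched probes. Under the knockout label in motor neurons 1 was higher, Mir17hg, and 4 were lower. These were Kcnq1ot1 and Airn, antisense transcripts that silence imprinted neighbours (-2.18 and -1.94, adjusted p = 0.0226 and 0.0283), Ftx, which lies in the X-inactivation centre (-2.74, adjusted p = 0.0137), and Dnm3os, a host of microRNAs (-4.0, adjusted p = 0.0112). The list's median was -0.76, beside -1.26 for the members and -0.20 for all probes. Ftx read -2.16 and -2.40 against 0.08 and 0.85, with -1.86 and -0.67 in non-motor neurons, so the WT-labelled motor neuron pair was again the high one. None of the 14 was called between motor neurons and non-motor neurons, and the list's median there was -0.15.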

How the data were processed

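Total RNA from sorted cells was amplified, Cy3-labelled and hybridised to 6 arrays. Per the file headers, spots were read with Agilent Feature Extraction 10.5.1.1, while the submitters' processing notes name 9.1. The deposited scanner files give each spot's processed signal as an intensity, background-subtracted and unscaled between arrays, with raw median and background intensities and flags. The authors' value table holds log2 values; it equals log2 processed signal minus each array's 75th percentile within 0.01 for 100.0% of values. No spot was saturated.

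That same scale was computed here from the scanner files. Probes well above background on at least 2 arrays and unflagged on every array entered the fit (33265). It used lmFit and eBayes of limma 3.58.1 (R 4.3.3), with Benjamini-Hochberg adjustment over all probes and a threshold of 0.05. The genotype label and its interaction came from 4 group means (2 residual degrees of freedom), the cell type from an additive model (3). Where a group had 1 array, its spread was taken from the other groups, and label differences between them are values only. With 2 arrays against 2, an exact permutation test cannot go below p = 0.333, so calls rest on the spread shared across probes. Precision is limited by having 6 arrays.

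The members, marker lists and gene lists were chosen with earlier results of these data known. Members were named by rule: up to 8 higher and 8 lower per tested comparison by size of the difference, with no overlap between groups, up to 4 per direction for the interaction and for non-motor neurons, the 10 brightest, up to 6 interval strands called throughout and 4 intervals called in opposite directions. Members on chromosome 18 were counted, not named. The chromosome 16 and X groups and further probes of named intervals were chosen after their values were seen. Genes were named through RefSeq accessions of GRCm38.p6, whose coordinates were not used.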

Additional observations from a re-analysis of the deposited data

How the results depend on the processing

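Counts of probes called depended on the processing, for the members and for all probes tested, and the cause was not tested. Counts below are higher and lower for the genotype label in motor neurons, then higher and lower for motor neurons against non-motor neurons; the main values are 227 and 1936, then 34 and 5. Normexp background correction gave 31 and 169, then 2 and 1. Median scaling gave 491 and 1167, then 74 and 22, the percentile over probes above background on all arrays 103 and 771, then 1 and 0, and quantile normalization 147 and 205, then 0 and 0. With no filter on dim probes all 4 counts were 0, and with members above background on all 6 arrays they were 90 and 1191, then 81 and 14. Leaving out 1 motor neuron array gave 68 to 318 and 534 to 2556, then 0 to 338 and 0 to 64. The additive model called 0 and 0 for the genotype label, and the model of 4 group means 104 and 37 for the cell type. The interaction had 37 members called with median scaling and 0 to 32 when an array was left out. Members past 4-fold in non-motor neurons, 59 in all, were 15 with normexp and 18 among those above background on all 6 arrays. The authors' value table gave 227 and 1934, then 34 and 5. Over all probes, 8257 were called for the genotype label in the main fit and 8250 with the authors' values. Normexp gave 1332, median scaling 9851, the other percentile 3265 and quantile normalization 1970. With no filter the count was 0, and among probes above background on all 6 arrays 6265. For the cell type the counts over all probes are not given, so the members' counts there describe the settings only.

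The median genotype difference of all probes moved from -0.20 to 0.44 with median scaling, -0.45 with normexp, -0.37 with the other percentile, 0.05 with quantile normalization and -1.12 with no filter. The members' median stayed below it in each, by -1.06, -0.53, -1.06, -0.90 and -0.13. Among the named members 0 changed sign under the alternatives run, but many lost their call. Of 33 named for the genotype label, 21 lost it with normexp, 12 with quantile normalization, 4 with the other percentile and all 33 with no filter. Of 17 named for the cell type, all 17 lost it with quantile normalization, with no filter and without either WT-labelled motor neuron array, 16 with normexp, 16 with the other percentile and 7 without KO-labelled array 1. Of 8 named in non-motor neurons, 6 moved with normexp. In the chromosome 16 group all 21 differences were positive in each setting that kept them, and 0 to 18 were called.

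Replicate numbers were not shown to pair the arrays: deviations of same-numbered motor neuron arrays correlated at -0.0964, with only 2 pairs. With a replicate block on the motor neuron arrays 231 members were higher and 2296 lower, and the share over all probes in that fit is not given. Depth limits what can be said of members near background, where the 3 dim motor neuron arrays have their lowest signal above background at -2.76 to -2.10, against -4.97 to -4.96 on the other 3.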
